A study of Mus musculus with 24 samples.

Results

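Respiratory complex I was followed through its Nduf genes in mouse neuroblastoma N2a cells, a cultured line of neural crest tumour origin. The members were the transcripts whose symbol starts with Nduf in the RNA-seq and ribosome profiling tables. There were 47 of them among 12759 transcripts listed in any table, with 1 transcript per gene. By name and known role, 37 encode complex I subunits, 8 encode assembly factors (Ndufaf1 to Ndufaf8), and 2 carry only the family name. These 2 are Ndufa4, now known as a complex IV subunit, and its paralogue Ndufa4l2. The cells had received CRISPR/Cas9 plasmids, either with guide RNAs that target Eif4e3 (KO) or as the empty vector (ctrl), and were selected with puromycin, so that KO denotes a pool of edited cells and not 1 clone. Each was treated with 250 nM Torin1, an inhibitor of the kinase mTOR, or with its vehicle DMSO for 2 h. This gave 4 conditions with 3 replicates of different cell passages in each assay, and replicate 2 of ctrl DMSO in ribosome profiling was not analysed here.

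Complex I takes electrons from NADH, passes them to ubiquinone and pumps protons across the inner mitochondrial membrane. Its peripheral arm holds the N module, where NADH is oxidised, and the Q module, where ubiquinone is reduced, while its membrane arm holds a proximal and a distal part. The core membrane subunits are made inside mitochondria, whereas all Nduf proteins are translated in the cytosol and imported. The assembly factors help to build the complex and are absent from the finished enzyme. mTOR promotes cap-dependent translation, in part by keeping the 4E-binding proteins off the cap-binding factor eIF4E1, and Eif4e3 encodes another member of the eIF4E family.

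Over the transcripts shared by the tables of an assay, RNA-seq libraries held 17048192 to 28911595 counts and ribosome profiling libraries 669244 to 5285876. The shallowest was the ctrl DMSO replicate 3 of the profiling, with 6160 counts on all members together. Levels are given as CPM, counts scaled to a common library total, with TMM factors over the 4 conditions. Every rise or fall in mRNA, footprints or TE is therefore relative to the other transcripts, and total translation was not measured by these counts. The paper reports fewer heavy polysomes with Torin1 in both lines. Eif4e3 mRNA was at 12.0 to 18.2 CPM in ctrl and 2.89 to 5.04 CPM in KO, and its footprints were at 11.6 to 22.0 CPM in ctrl and 2.29 to 6.61 CPM in KO, with no overlap in either assay. Of 14 neuroblastoma markers, 12 had values, with a summed mRNA level of 3519 to 4581 CPM. Most of this sum came from Chgb (1358 to 1966 CPM) and Tubb3 (925 to 1548 CPM). Th and Gata3 were low, at 4.29 to 6.64 and 5.27 to 13.5 CPM. Of 7 markers of other cells only Pecam1 had values, at 2.31 to 4.58 CPM of mRNA.

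The bases around the start codon are shown first, because several subunits whose TE fell under Torin1 share a run of letters there. Of the 21 subunits called lower in TE in KO, 10 have that run and 11 lack it. Ndufb9 and Ndufa10, not printed below, are among those that lack it. Ndufs4, also not printed, has it and was not called lower. All 47 transcripts matched the GENCODE M21 annotation (mouse build GRCm38), and 46 of them have an annotated coding sequence (CDS). The exception is Ndufb1-ps, which that annotation calls a non-coding RNA and which was counted here as a subunit because of its name. Each line gives 12 bases before the start codon and 12 from its first base on, 5′ to 3′ on the spliced mRNA. Capitals mark the run ATGGCGGC where it is complete, and otherwise the start codon alone.
Ndufb5: gccggtgtagccATGGCGGCcatg
Ndufa6: ttcctcggcaagATGGCGGCcgcg
Ndufb11: gtacaagctgtcATGGCGGCccga
Ndufa9: ttgtgggagaagATGGCGGCcgcc
Ndufs1: aggaaagccatcATGttaaggata
Ndufaf1: ttttttcttacgATGgcaatgtct
Ndufab1: gttggcgtagccATGgcgtctcgt

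The first 4 are subunits with the run, the next 2 are the members whose footprints were called higher under Torin1 (Ndufaf1 in ctrl alone), and Ndufab1 is the member with the most footprints per mRNA in DMSO. Ndufb5 lies at chr3:32736990-32751566 on the plus strand with 6 exons, and Ndufa6 at chr15:82350140-82354322 on the minus strand with 3 exons. Ndufb11 lies at chrX:20615326-20617619, Ndufa9 at chr6:126821721-126849125, Ndufs1 at chr1:63143596-63176822, Ndufaf1 at chr2:119655451-119662798 and Ndufab1 at chr7:122085403-122101886, all on the minus strand. ATGGCGGC was looked for only at the annotated start codon. It stood there in 11 of 36 subunits with a CDS (30.6%), in 0 of 8 assembly factors, and in 441 of 10406 annotated transcripts tested for translational efficiency (4.24%). These letters are part of an initiation element known as TISU, which is known for mRNAs with very short leaders. The 8 letters alone do not make a transcript a TISU mRNA. A longer run adds the bases directly before the start codon, as they stand in Ndufa6 and Ndufa9. It was found in 7 of 36 subunits (19.4%) and in 144 of 10406 transcripts (1.38%). Ndufb5 and Ndufb11 lack it. Whether any of the 11 subunits uses TISU was not tested. The coding sequences of 9 members are overlapped by exons of other genes, among them those of Ndufb5, Ndufb8, Ndufb9, Ndufb2, Ndufa9, Ndufab1 and Ndufs1. The overlap is on the same strand for 3 members and on the other strand for 7, and a member can have both. Whether the counting used the strand is not stated, so reads of such pairs were not told apart here. The annotated leaders of the 11 subunits ran from 13 to 775 nt, with a median of 96.0 nt. Subunit CDSs were short, with a median of 447 nt against 776 nt for assembly factors and 1395 nt for all transcripts tested.

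In ctrl DMSO, footprint density spanned a wide range, with 2 assembly factors and Ndufa4l2 at its lower end. Ndufa4 had the highest density, at 3393 ± 798 CPM per kb of CDS (SD, n = 2), ahead of the accessory subunits Ndufa12 at 1239 ± 130 and Ndufa1 at 1233 ± 465 CPM per kb. The latter pair did not differ beyond their spread. The lowest were Ndufaf7 at 16.1 ± 3.57, Ndufaf1 at 20.4 ± 3.52 and Ndufa4l2 at 22.4 ± 5.59 CPM per kb, which overlapped in their spread. The summed footprint level of the 37 subunits was 10834 CPM in ctrl DMSO replicate 1 and 9020 CPM in replicate 3, against 282 and 244.5 CPM for the 8 assembly factors.

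Translational efficiency (TE) divides the footprints on a CDS by its mRNA, and is given here on the log2 scale with its standard error from the joint edgeR model. Ndufab1, the mitochondrial acyl carrier protein that also serves fatty acid synthesis, had the highest TE in ctrl DMSO, at 2.14 ± 0.12, which was the 98.2nd percentile of all transcripts. Ndufa1 (1.76 ± 0.16) and Ndufa12 (1.75 ± 0.14) followed. The lowest were Ndufv2 of the N module (-0.53 ± 0.12), Ndufaf5, which hydroxylates an arginine of Ndufs7 (-0.48 ± 0.16), and the iron-sulfur subunit Ndufs8 (-0.36 ± 0.15), whose intervals overlapped. Ndufab1 had a TE of 2.01 ± 0.11 in ctrl Torin1, 2.34 ± 0.11 in KO DMSO and 1.97 ± 0.11 in KO Torin1.

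Torin1 against DMSO asks how the members respond to mTOR inhibition, and was tested in each genotype with edgeR at an adjusted p of 0.05. In ctrl cells, 46 of 47 member mRNAs were lower with Torin1, with a median log2 change of -0.35 for both subunits and assembly factors against 0.00 for all 10958 transcripts tested. No member was called by edgeR, against 2.73% of all transcripts. An unadjusted p under 0.05 was found for 33 of 47 members and for 2516 of 10958 transcripts. DESeq2 called 9 members, all lower. The summed subunit mRNA was 7966, 9281 and 7052 CPM in the 3 ctrl DMSO libraries and 6651, 6316 and 6576 CPM with Torin1. The DMSO values were thus all above the Torin1 values but differed more among themselves, and 31 of 37 subunits had their lowest DMSO level in replicate 3. Without that library edgeR called 29 members lower. For DESeq2 and for this fit, the shares of all transcripts called are not given here.

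In KO cells the mRNA change was smaller, with a median of -0.20 for both subunits and assembly factors. Here 4 members were called lower and 0 higher, against 3.74% of all transcripts called lower and 6.23% higher. Ndufb10, Ndufb7 and Ndufb8, all accessory subunits of the distal membrane arm, fell by 0.33, 0.35 and 0.28 on the log2 scale (adjusted p = 0.0255, 0.0382 and 0.0416 by edgeR). Ndufaf8, the partner of Ndufaf5, fell by 0.80 (SE 0.23, adjusted p = 0.0456 by edgeR). The count was 1 without KO DMSO replicate 1 or KO Torin1 replicate 1, 0 without KO Torin1 replicate 2 or 3, and 7 without KO DMSO replicate 3.

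**Figure D1:**
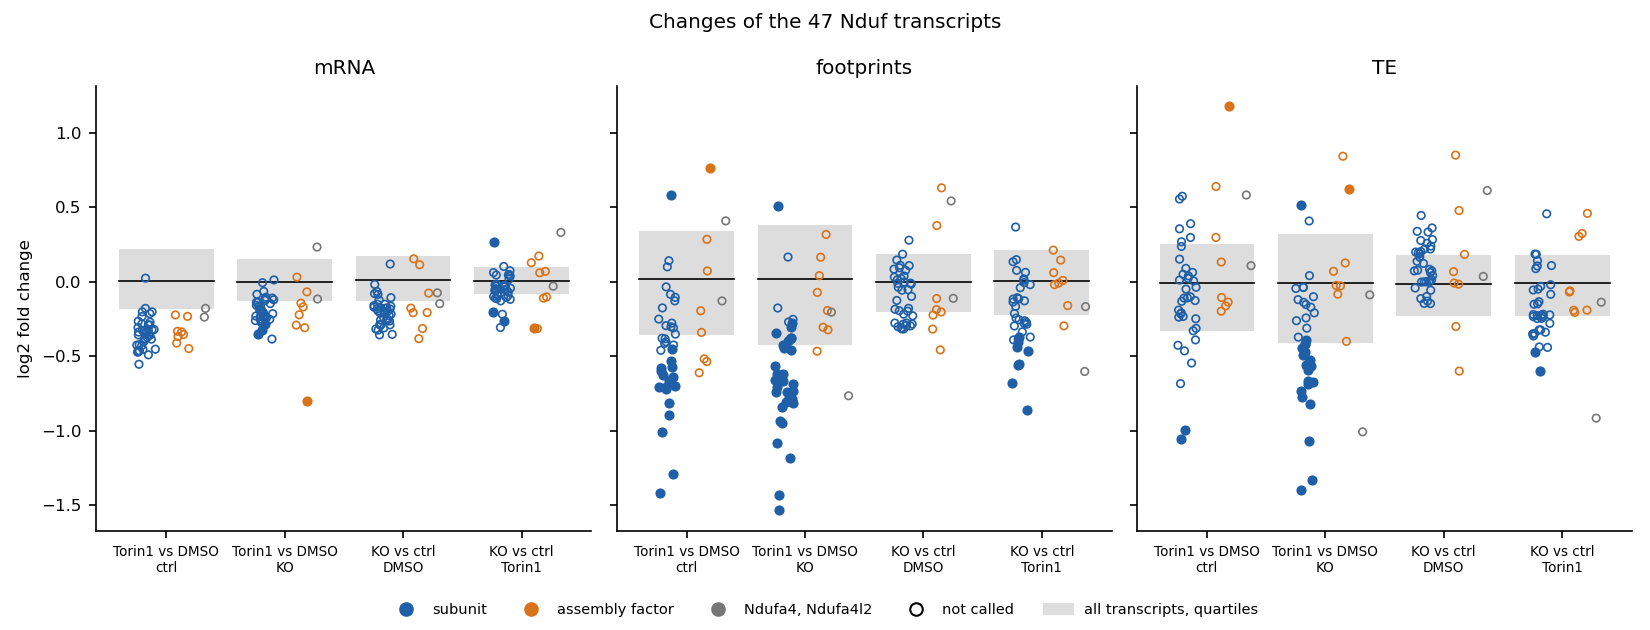
Log2 fold change of each of the 47 members in mRNA, footprints and TE for the 4 pairs of conditions (x axis), with filled points called at an adjusted p under 0.05 by edgeR and grey bands spanning the quartiles of all transcripts tested. Filled subunit points gather below 0 in the footprint panel, with 32 subunits called lower for Torin1 in KO. Assembly factor points lie on both sides of 0 there, with Torin1 medians of -0.27 in ctrl and -0.13 in KO. In the mRNA panel most of them lie below 0 with Torin1, as the subunits do.

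Footprints of the subunits fell with Torin1 relative to other transcripts in both genotypes. In ctrl cells 17 subunits were called lower, and the subunit Ndufs1 and the assembly factor Ndufaf1 were called higher, against 9.93% of all transcripts called lower and 5.69% higher. In KO cells 32 of 37 subunits were called lower, Ndufs1 was again called higher and 0 of 8 assembly factors were called, against 22.1% of transcripts lower and 18.5% higher. The median subunit change was -0.43 in ctrl and -0.66 in KO, against 0.02 for all transcripts in each. All 17 subunits lower in ctrl were also lower in KO, where most subunits were called lower. The comparisons share no library, but the replicate numbers, which coincide with sequencing lanes, recur in both. In ctrl the number of members called was 19, but 7 without ctrl DMSO replicate 1, and 8 without ctrl Torin1 replicate 2 or 3. It was 12 (10 lower, 2 higher) if libraries were scaled by their totals alone, a setting that moved the median of all transcripts to 0.23 and their calls to 684 lower and 1691 higher, from 1062 and 608. In KO, leaving out any library gave 26 to 34, and totals alone gave 24 (21 lower, 3 higher) with 1532 transcripts lower and 3766 higher, from 2391 and 1999.

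Ndufb5, an accessory subunit of the distal membrane arm, changed most. Its footprints were at 253 and 164 CPM in ctrl DMSO, and at 90.4, 79.1 and 74.4 CPM in ctrl Torin1. In KO they were at 213, 207 and 212 CPM with DMSO and at 73.2, 71.4 and 76.6 CPM with Torin1. Every Torin1 library was below every DMSO library in both genotypes. The log2 change was -1.42 ± 0.18 (SE) in ctrl (adjusted p = 1.16e-05 by edgeR) and -1.53 ± 0.12 in KO (adjusted p = 2.66e-12 by edgeR), while its mRNA was at 147 to 207 CPM with DMSO and at 140 to 152 CPM with Torin1 over both genotypes.

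Ndufa6, an accessory subunit that holds an acyl carrier protein, behaved in a similar way. Its footprints were at 184 and 118 CPM in ctrl DMSO against 78.9, 65.7 and 51.1 CPM in ctrl Torin1. In KO they were at 171, 148 and 156 CPM with DMSO and at 56.4, 60.4 and 61.2 CPM with Torin1. The groups did not overlap, with changes of -1.29 ± 0.20 (adjusted p = 0.000127) in ctrl and -1.43 ± 0.13 (adjusted p = 6.72e-11) in KO by edgeR.

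Ndufb11, of the distal membrane arm, had a change of more than 1 log2 unit as well. Its footprints were at 230 and 202 CPM in ctrl DMSO and at 116, 110 and 101 CPM in ctrl Torin1. In KO they were at 222, 180 and 162 CPM with DMSO and at 77.6, 84.8 and 90.3 CPM with Torin1. Again every Torin1 library was lower, by 1.01 ± 0.15 in ctrl (adjusted p = 7.37e-05) and 1.18 ± 0.13 in KO (adjusted p = 9.09e-09) on the log2 scale by edgeR.

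Other subunits named by the smallest adjusted p were Ndufb9 (-0.81 ± 0.16 in ctrl and -0.93 ± 0.11 in KO), Ndufv1, which binds flavin and oxidises NADH (-0.64 ± 0.14 in ctrl), and Ndufb7 and Ndufb8 (-1.08 ± 0.13 and -0.95 ± 0.11 in KO). The call for Ndufb9 in ctrl was lost without ctrl DMSO replicate 1 (adjusted p = 0.0644 by edgeR, the highest of its 10 alternatives). Ndufab1 fell by 0.45 in ctrl and by 0.62 in KO on the log2 scale (adjusted p = 0.0359 and 3.96e-05 by edgeR).

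Ndufs1, an iron-sulfur subunit of the N module with the longest CDS of all members (2184 nt), went the other way. Its footprints were at 355 and 337 CPM in ctrl DMSO and at 495, 559 and 501 CPM in ctrl Torin1. In KO they were at 357, 427 and 400 CPM with DMSO and at 569, 580 and 560 CPM with Torin1. Torin1 libraries were all higher in each genotype, by 0.58 ± 0.14 in ctrl (adjusted p = 0.00909) and 0.51 ± 0.11 in KO (adjusted p = 0.000238) on the log2 scale by edgeR. For Ndufs1 this is a rise relative to other transcripts. Its mRNA was at 341 to 399 CPM in every library, with log2 changes of 0.02 ± 0.10 and -0.01 ± 0.07. The ctrl call was lost without ctrl Torin1 replicate 2 (adjusted p = 0.0849 by edgeR, the highest of its 10 alternatives).

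**Figure D2:**
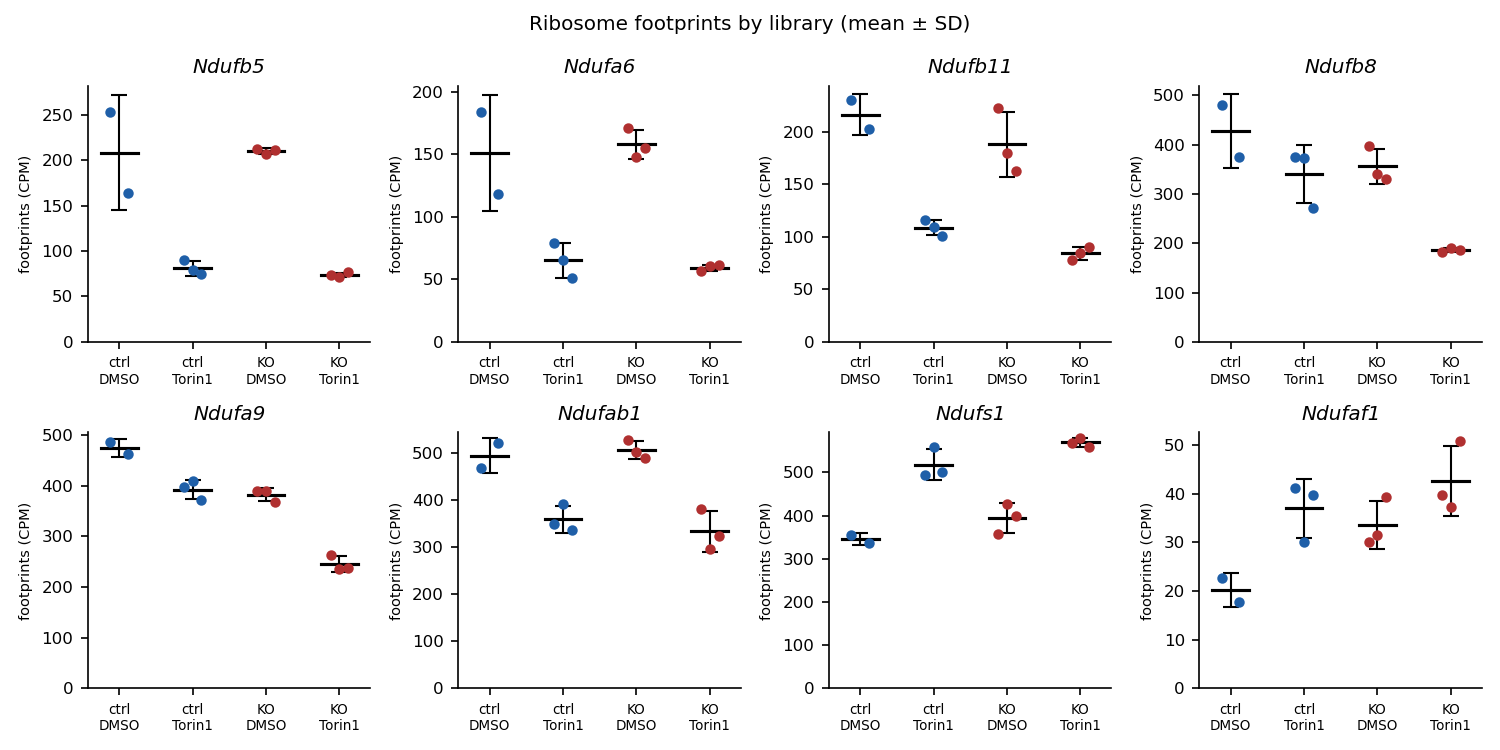
Footprint level in CPM (y axis, from 0) of 8 members in each ribosome profiling library, grouped by condition (x axis), with bars for the mean and SD. Ndufb5, Ndufa6 and Ndufb11 drop with Torin1 in ctrl (blue) and KO (red), Ndufs1 rises in both, and Ndufb8 and Ndufa9 are lowest in KO Torin1.

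Subunits called lower in footprints were counted by arm, with no test between arms. In KO, against 22.1% of all transcripts, they were 8 of 10 subunits of the N module, 6 of 6 of the Q module, 8 of 9 of the proximal and 9 of 11 of the distal membrane arm, beside Ndufab1, with median log2 changes of -0.68, -0.77, -0.40 and -0.74 for the 4 modules. In ctrl, against 9.93% of all transcripts, the counts were 6, 3, 2 and 5 in the same order, with medians of -0.57, -0.49, -0.30 and -0.46. The 4 subunits not called in KO footprints were Ndufa8, Ndufb3, Ndufb4 and Ndufs4, at log2 changes of -0.18, 0.17, -0.27 and -0.25, where the first was 0.07 without scaling. They were named after their values were seen.

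The assembly factors had few counts, which limits what can be called. Their footprint changes with Torin1 had a median standard error of 0.25 in ctrl and 0.19 in KO, against 0.16 and 0.12 for the subunits, and the lowest count of an assembly factor in a library was 4. Their summed footprint level was 225 to 282 CPM in all 11 libraries, while that of the subunits was 8780 to 10834 CPM with DMSO and 6211 to 8445 CPM with Torin1. The median footprint change of the 8 was -0.27 in ctrl and -0.13 in KO, and -0.05 and 0.12 without scaling, where all transcripts had medians of 0.23 and 0.27. No test compared the 8 with the 37 subunits.

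Ndufaf1, which acts in assembly of the membrane arm, was the only assembly factor called in footprints or TE under Torin1. Its footprints were at 22.7 and 17.8 CPM in ctrl DMSO and at 41.2, 30.1 and 39.7 CPM in ctrl Torin1, without overlap. In KO they were at 30.0, 31.6 and 39.2 CPM with DMSO and at 39.7, 37.4 and 50.9 CPM with Torin1, with overlap. The footprint change was 0.76 ± 0.25 in ctrl (adjusted p = 0.0436 by edgeR) and 0.32 ± 0.17 in KO (adjusted p = 0.134 by edgeR), and the ctrl call was lost with DESeq2 and without any 1 of the 5 libraries. Its mRNA was at 15.5 to 19.9 CPM with Torin1 and 19.1 to 25.7 CPM with DMSO over both genotypes.

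Footprints of the other assembly factors were not called with Torin1 in either genotype. In ctrl, every Torin1 library was nonetheless below every DMSO library for Ndufaf2, Ndufaf6 and Ndufaf8. In KO this held for Ndufaf5 and Ndufaf6. How often all transcripts separate in this way was not counted. Ndufaf2, a paralogue of Ndufa12 that acts late in assembly, had footprints of 76.2 ± 2.37 CPM in ctrl DMSO, 60.6 ± 1.08 in ctrl Torin1, 67.2 ± 12.2 in KO DMSO and 59.6 ± 5.72 in KO Torin1 (SD, n = 2 in ctrl DMSO and 3 elsewhere). Ndufaf3 and Ndufaf4, partners in building the Q module, were at 48.2 ± 13.2, 36.4 ± 3.76, 45.0 ± 8.04 and 35.8 ± 4.84 CPM and at 12.9 ± 9.14, 20.1 ± 3.32, 21.6 ± 1.03 and 21.1 ± 3.74 CPM in the same order. Ndufaf5 was at 42.8 ± 5.94, 35.8 ± 3.17, 35.4 ± 1.82 and 29.0 ± 3.39 CPM. None of these 4 was called for Torin1, with log2 changes of -0.52 to 0.28 in ctrl and -0.32 to -0.07 in KO.

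Ndufaf6, an early assembly factor, was at 24.8 ± 3.88, 15.8 ± 5.15, 18.5 ± 2.39 and 13.7 ± 1.00 CPM of footprints in ctrl DMSO, ctrl Torin1, KO DMSO and KO Torin1. Ndufaf7, a methyltransferase, was at 21.1 ± 4.68, 24.0 ± 0.80, 20.5 ± 6.32 and 24.2 ± 1.81 CPM. Ndufaf8 was at 16.9 ± 3.24, 12.4 ± 0.95, 13.3 ± 1.99 and 13.8 ± 1.81 CPM. None of the 3 passed the test on footprints under Torin1.

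TE under Torin1 separates the fall of footprints from that of mRNA. In ctrl the median subunit TE change was -0.11, against -0.01 for all transcripts, with 22 of 37 subunits below 0. The subunit medians there were -0.43 in footprints and -0.35 in mRNA. In KO the TE median was -0.42, against -0.01, with 34 of 37 below 0. The subunit medians there were -0.66 in footprints and -0.20 in mRNA. In ctrl, 2 members were called lower and 1 higher, against 4.32% of transcripts lower and 0.393% higher. Ndufb5 and Ndufa6 fell by 1.06 ± 0.23 and 0.99 ± 0.25 on the log2 scale (adjusted p = 0.00714 and 0.0193 by edgeR), and Ndufaf1 rose by 1.18 ± 0.30 (adjusted p = 0.0210 by edgeR). These calls rest on few libraries. The count was 0 without the ctrl DMSO replicate 1 of the profiling, 1 without the ctrl Torin1 replicate 3 of the profiling or the ctrl Torin1 replicate 1 of RNA-seq, and 7 without the ctrl DMSO replicate 2 of RNA-seq. Shares of all transcripts called in these fits are not given here.

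In KO, 21 subunits were called lower in TE, against 17.8% of transcripts, and Ndufs1 and Ndufaf1 were called higher, against 10.5%. The footprint to mRNA ratio of Ndufb5 was 1.37, 1.16 and 1.45 in the KO DMSO libraries and 0.487, 0.492 and 0.547 with Torin1. Its TE fell by 1.40 ± 0.13 on the log2 scale (adjusted p = 1.13e-08 by edgeR), that of Ndufa6 by 1.33 ± 0.14 (adjusted p = 5.46e-08) and that of Ndufb11 by 1.07 ± 0.17 (adjusted p = 2.8e-05). Ndufb9 and Ndufa10, a subunit of the proximal membrane arm, fell by 0.77 and 0.69. Ndufs1 rose by 0.51 ± 0.12 (adjusted p = 0.00175 by edgeR) and Ndufaf1 by 0.63 ± 0.19 (adjusted p = 0.0169 by edgeR, lost without the KO Torin1 replicate 3 of the profiling at 0.0741). The N module had 7 of 10 subunits lower, the Q module 5 of 6, the distal arm 6 of 11 and the proximal arm 2 of 9. Leaving out any library gave 18 to 24 members called, and 13 were called without scaling beyond library size, a setting that moved the median TE change of all transcripts to 0.22.

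**Figure D3:**
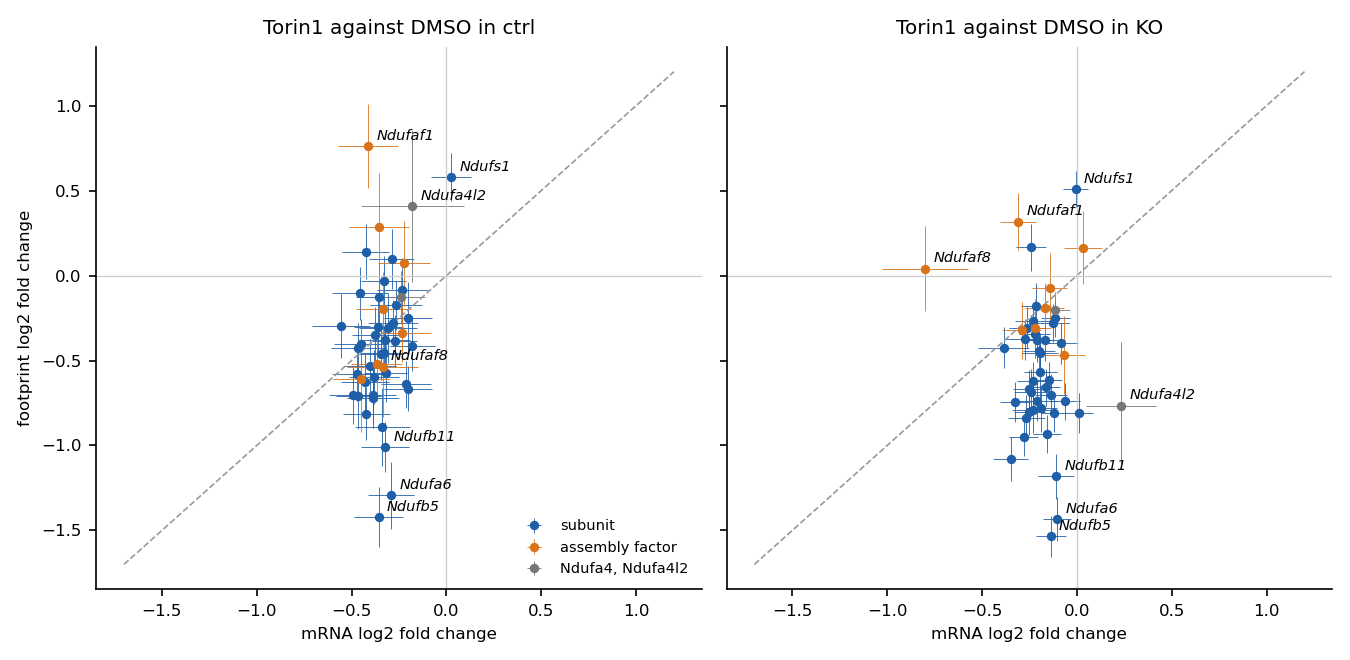
Log2 change of mRNA (x axis) against that of footprints (y axis) with Torin1 for each member in ctrl and KO, with standard errors and a dashed line where both are equal. Most subunits lie left of 0 on the mRNA axis in both genotypes, and Ndufb5, Ndufa6 and Ndufb11 lie farthest below the line, with Ndufs1 and Ndufaf1 above it.

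Subunits with ATGGCGGC at the start codon, as in the first 4 sequences above, were compared in TE under Torin1 with those without. In KO, 10 of the 11 were called lower against 11 of the 25 without it, with medians of -0.57 and -0.31. Of all transcripts tested, 17.8% were called lower. The exception was Ndufs4 of the N module, at -0.14. In ctrl, 2 of the 11 and 0 of the 25 were called lower, with medians of -0.25 and -0.04, against 4.32% of all transcripts. For ctrl footprints, 9 of the 11 and 8 of the 25 were called lower, against 9.93% of all transcripts. Across all annotated transcripts tested in KO, the median TE change was -0.28 for the 439 with these letters and 0.00 for the 10059 without. How many of the 439 were called was not counted. The motif was examined after the changes were known, the counts for subunits were not tested, and these letters were not shown to act in these cells.

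**Figure D4:**
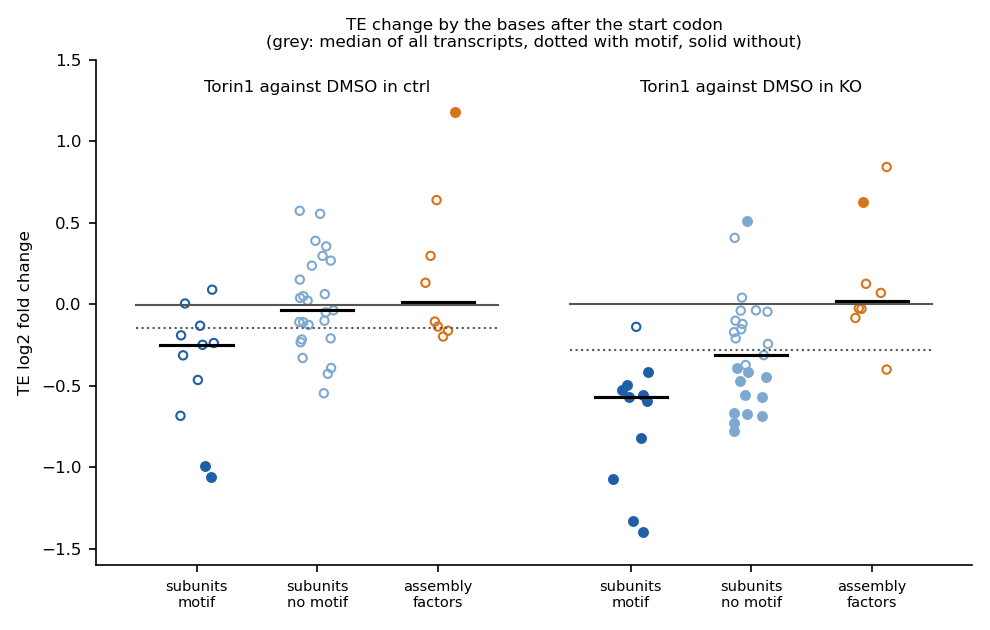
TE log2 change with Torin1 (y axis) in ctrl and KO for subunits with and without the 8-base run at the start codon and for assembly factors, with black bars for medians, filled points called by edgeR, and grey lines for the medians of all transcripts with (dotted) and without (solid) the run. In KO the subunits with the run have a median of -0.57 and those without it -0.31.

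KO against ctrl compares the edited pool with the empty-vector cells, at rest and under mTOR inhibition. The replicates are passages, so the p-values measure the spread between passages. Loss of eIF4E3 cannot be told apart from other differences between the selected cell populations. In DMSO no member was called by edgeR in mRNA, footprints or TE, where 0.0183%, 0.0279% and 0% of all transcripts were called. Unadjusted p-values under 0.05 were found for 4, 2 and 2 of 47 members, and DESeq2 called 0 in each. Among all transcripts they were found for 646 of 10924, 850 of 10757 and 416 of 10475. The mRNA of 44 of 47 members was nonetheless lower in KO, with a median log2 change of -0.20 against 0.01 for all transcripts. The summed subunit mRNA was 6547, 7688 and 6601 CPM in KO DMSO, within or below the 7052 to 9281 CPM of ctrl DMSO. Footprints of Ndufaf1, at 0.63 ± 0.23 on the log2 scale, had the highest value of any member (adjusted p = 0.548 by edgeR).

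Under Torin1, 8 subunits and 0 other members were called lower in footprints in KO than in ctrl, and 0 were higher, against 4.01% of transcripts lower and 2.02% higher. The median was -0.26 for subunits and -0.000198 for assembly factors. They included Ndufb8, Ndufb7 and Ndufb2 of the distal arm, Ndufa9 and Ndufs8 of the Q module, Ndufa12 of the N module and Ndufc2 of the proximal arm. The count was 5 with DESeq2, and 5 without ctrl Torin1 replicate 2, KO Torin1 replicate 1 or KO Torin1 replicate 2.

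Ndufb8 differed most. Its footprints were at 375, 372 and 272 CPM in ctrl Torin1 and at 182, 191 and 187 CPM in KO Torin1. All KO libraries were below all ctrl libraries, although the ctrl values spread widely. The log2 change was -0.86 ± 0.11 (adjusted p = 1.6e-06 by edgeR). With DMSO its footprints were at 481 and 376 CPM in ctrl and at 397, 341 and 330 CPM in KO, where the groups overlapped.

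Ndufa9, an accessory subunit that binds NADPH next to the quinone site, was at 398, 409 and 371 CPM in ctrl Torin1 and at 263, 237 and 237 CPM in KO Torin1. These groups did not overlap, and the difference was -0.68 ± 0.10 (adjusted p = 2.04e-05 by edgeR). With DMSO it was at 487 and 463 CPM in ctrl and at 390, 390 and 367 CPM in KO. Here too KO was lower in every library, with a difference that did not pass the test (-0.32 ± 0.15, adjusted p = 0.619 by edgeR).

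Ndufa12, an accessory subunit close to the N module, was at 612, 493 and 477 CPM in ctrl Torin1 and at 401, 371 and 302 CPM in KO Torin1, also without overlap (-0.55 ± 0.11, adjusted p = 0.00103 by edgeR). Ndufb7 was at 167, 148 and 151 CPM against 85.5, 117 and 114 CPM (-0.56 ± 0.13, adjusted p = 0.00411 by edgeR), a call lost without KO Torin1 replicate 1 (adjusted p = 0.0545, the highest of its 11 alternatives). Ndufb2, Ndufc2 and Ndufs8 were lower by 0.44, 0.37 and 0.46 on the log2 scale, and each lost its call under 5 or 6 of 11 alternatives. Ndufc2 and Ndufs8 stood just inside the threshold (adjusted p = 0.0385 and 0.0448 by edgeR), and Ndufa7 and Ndufb11 just outside it (-0.38 and -0.37 on the log2 scale, adjusted p = 0.0722 and 0.0783 by edgeR).

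In TE, Ndufb8 and Ndufa9 were the members lower in KO under Torin1, by 0.60 ± 0.13 and 0.47 ± 0.10 on the log2 scale (adjusted p = 0.00916 and 0.0087 by edgeR), against 2.46% of transcripts lower and 0.533% higher. Both kept their calls under all 17 alternatives. The count was 5 without the ctrl Torin1 replicate 3 of the profiling and 4 without its KO Torin1 replicate 1. The median TE change was -0.22 for subunits and -0.07 for assembly factors against -0.01 for all transcripts.

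Member mRNAs differed little between KO and ctrl under Torin1, with a median log2 change of -0.05, and 3 were called lower and 1 higher, against 0.954% and 1.01% of all transcripts. Ndufb8 mRNA was at 423, 396 and 434 CPM in ctrl and at 370, 326 and 343 CPM in KO (-0.27 ± 0.06, adjusted p = 0.0258 by edgeR), without overlap. Ndufaf3 and Ndufa9 were also lower (-0.31 ± 0.07 and -0.20 ± 0.05, adjusted p = 0.0444 and 0.0482 by edgeR). Ndufs4 was higher, at 221, 196 and 200 CPM in ctrl and at 253, 238 and 250 CPM in KO, again without overlap (0.27 ± 0.06, adjusted p = 0.0245 by edgeR). The count was 0 without ctrl Torin1 replicate 3, KO Torin1 replicate 2 or KO Torin1 replicate 3, and 1 without ctrl Torin1 replicate 1 or KO Torin1 replicate 1.

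Whether the response to Torin1 itself differed between genotypes was tested as an interaction. No member was called by edgeR in mRNA, footprints or TE, where 0%, 0.113% and 0% of transcripts were called, and DESeq2 called 0 members in each. Unadjusted p-values under 0.05 were found for 0, 2 and 4 of 47 members, and for 108 of 11073, 731 of 10662 and 600 of 10443 transcripts. The interaction estimate for TE was below 0 for 34 of 37 subunits, with a median of -0.29 against -0.01 for all transcripts. That for footprints was below 0 for 30 of 37, with a smaller median of -0.11 against -0.02. The estimate for mRNA was above 0 for 35 of them, with a median of 0.15 against -0.01. The TE estimate thus takes in the mRNA difference as well as that of footprints. Ndufb8 had an interaction estimate of -0.57 ± 0.20 in footprints (adjusted p = 0.397 by edgeR) and -0.66 ± 0.25 in TE (adjusted p = 0.754 by edgeR). The larger number of calls in KO than in ctrl is therefore not shown to be a difference in response, and the comparison in ctrl had 1 library fewer.

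Ndufa4 and Ndufa4l2, which carry the family name only, were not called in any comparison. Ndufa4 footprints were at 845 ± 199 CPM in ctrl DMSO, 779 ± 56.5 in ctrl Torin1, 789 ± 85.0 in KO DMSO and 694 ± 71.7 in KO Torin1, with overlap between neighbouring conditions. Torin1 changed it by -0.13 ± 0.15 on the log2 scale for ctrl and by -0.20 ± 0.11 for KO, neither passing the test, and without scaling these values were 0.08 and 0.05. Ndufa4l2 had 3 to 69 footprint counts in a library. Its footprints changed by 0.41 ± 0.45 in ctrl and by -0.77 ± 0.37 in KO with Torin1 (adjusted p = 0.588 and 0.1 by edgeR), and its TE in KO by -1.01 ± 0.44 (adjusted p = 0.0884 by edgeR).

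The remaining genes of the respiratory chain were counted from lists. With Torin1 in KO, footprints were called lower for 2 of 4 complex II, 8 of 9 complex III, 8 of 10 complex IV and 13 of 14 complex V subunits, with 0 called higher and medians of -0.26, -0.52, -0.53 and -0.77, against 22.1% of all transcripts called lower. For assembly factors of complex I without the Nduf name, 2 of 9 were called lower and 0 higher, a share close to that of all transcripts, with a median of -0.16. With Torin1 in ctrl the counts lower were 0, 4, 4, 9 and 0 in the same order, against 9.93% of all transcripts. In KO against ctrl under Torin1 they were 1, 2, 4, 6 and 0, with medians of -0.25, -0.07, -0.27, -0.23 and -0.30, and 0 were called higher, against 4.01% of all transcripts called lower.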

How the data were processed

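RNA-seq (12 libraries) and ribosome profiling (11 libraries) were analysed from 8 tables of raw counts deposited by the authors, each for 1 pair of conditions. Per the authors' methods and processing notes, adapters were trimmed with cutadapt, reads of rRNA, tRNA and pseudogenes were removed, and the rest were mapped to the mm10 genome (HISAT2) and then to Ensembl transcripts (Bowtie2), keeping 1 canonical transcript per gene. The deposited counts are per CDS, and footprint counts are of P-sites placed by riboWaltz. Tool versions are not given in the sources used here. The authors' fold changes and p-values in these tables, and 2 TE tables, were not used.

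A transcript was tested if it exceeded 1 CPM in all libraries of either condition compared, with edgeR 4.0.16 (R 4.3.3): TMM scaling, the quasi-likelihood test and Benjamini-Hochberg adjustment over all transcripts, with a threshold of 0.05. TE was the assay by condition term of a joint model, and the standard error was the log2 change divided by the square root of F. The scripts were tested on simulated data. Members were named by the smallest adjusted p in each direction, at most 6 (12 in footprints and TE of KO against ctrl in Torin1), beside each assembly factor, the 3 highest and 3 lowest in density and TE, Ndufab1, Ndufa4, Ndufa4l2 and the members nearest the threshold. 1 member that this rule names is not reported here. Members, lists and the start-codon run were chosen with earlier results of these data known.

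Alternatives were DESeq2 1.42.0, DESeq2's size factors within edgeR, no scaling beyond library size, no filter, the replicate number as a block and leaving out each library. Per the labels, replicates are different passages of the cells, and whether a number is the same passage in every condition is not stated, so the fits reported have no block. In ribosome profiling the sequencing lane coincides with the number and cannot be told apart from it. Depth was 17048192 to 28911595 counts per RNA-seq library and 669244 to 5285876 per ribosome profiling library, so footprint values of low members are the least precise.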

Additional observations from a re-analysis of the deposited data

How the results depend on the processing

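No called member that is named reversed its direction under any alternative that was run. Without scaling, members not called changed sign with Torin1: 7 in ctrl and 4 in KO in footprints, and 9 and 13 in TE. The median TE change of members in ctrl went from -0.10 to 0.05. Numbers of members called that moved by more than 1.5 times are as follows. For Torin1 in ctrl, mRNA calls went from 0 to 9 with DESeq2 and 12 with the replicate block, footprint calls from 19 to 12 without scaling, and TE calls from 3 to 5 with DESeq2. For Torin1 in KO, mRNA calls went from 4 to 7 with the block and TE calls from 23 to 13 without scaling. For KO against ctrl, mRNA calls in DMSO went from 0 to 8 with the block. In Torin1, mRNA calls went from 4 to 2 without scaling and to 2 without the filter, footprint calls from 8 to 5 with DESeq2, and TE calls from 2 to 7 with the block. The block moved no other number by that much. Whether the numbers pair the libraries is not given by the design. Deviations from condition means correlated at -0.0369 to 0.671 (median 0.126, 18 pairs) between RNA-seq libraries of the same number and at -0.0397 to 0.137 (median 0.0419, 15 pairs) in ribosome profiling. Between different numbers the medians were -0.0635 (36 pairs, -0.519 to 0.368) and -0.0248 (30 pairs, -0.137 to 0.113). In RNA-seq 11 of 12 and in ribosome profiling 8 of 11 libraries had their highest mean correlation with their own number. These values are a hint of pairing from the data and not the design. The cause was not tested.

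Leaving out 1 library gave, for Torin1 in ctrl, 0 to 29 members called in mRNA, 7 to 27 in footprints and 0 to 7 in TE, and for Torin1 in KO 0 to 7, 26 to 34 and 18 to 24. For KO against ctrl in Torin1 it gave 0 to 3, 5 to 10 and 2 to 5, and in DMSO and for the interactions 0 throughout. The shares of all transcripts called in the fits without a library are not given here, so these ranges have no background beside them. Without scaling, Torin1 moved the median footprint change of all transcripts to 0.23 for ctrl and 0.27 for KO. The split of all footprint calls then went from 1062 lower and 608 higher to 684 and 1691 in ctrl, and from 2391 and 1999 to 1532 and 3766 in KO. For TE it went from 451 and 41 to 327 and 162 in ctrl, and from 1875 and 1106 to 1230 and 2526 in KO. Low footprint counts limit what can be seen for assembly factors and Ndufa4l2, and the ctrl footprint comparisons rest on 2 DMSO libraries.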

Other observations

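Base composition and length of the CDS were set beside the TE change with Torin1 in KO, as descriptions across transcripts that share libraries. Spearman's rho of the TE change with CDS GC content was -0.43 over 36 subunits and -0.31 over 10498 transcripts. With CDS length it was -0.38 over the subunits and 0.09 over all transcripts. A C followed by 4 pyrimidines at the annotated 5′ end, as in terminal oligopyrimidine mRNAs, was present in 1 of 46 members, Ndufb11, and in 2.28% of transcripts tested for TE.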
